A study of Mus musculus with 10 samples.

Results

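Lungs of mice given house dust mite (HDM) extract were compared with lungs of mice given phosphate-buffered saline (PBS), on RNA counts from 3 HDM and 4 PBS libraries of the 10 in the series. All were female BALB/c mice, 8 to 9 weeks old at purchase according to the methods, 1 week before the start, with 1 library per mouse. HDM was instilled into the nose 2 times per week, over 3 weeks (methods and sample labels) or 6 weeks (figure legends). The methods place the airway measurements 24 h after the last instillation and give no separate time for the tissue sequenced. Each dose held 10 μg of extract in 30 μl of PBS by the methods, whereas the labels write mg and ml, and PBS mice received PBS on the same schedule. The labels do not say whether the PBS or HDM mice sequenced also received the nafamostat vehicle (3% acetic acid in PBS), and the 3 mice given HDM and nafamostat are not part of the comparison. The tissue used for RNA was the upper portion of the left lobe, from separate experiments by the methods. These name 2 individual experiments, and the labels do not say which one each library came from. A difference between experiments could therefore not be told apart from one between groups. Each target on the panel is 1 amplicon per gene, so counts compare libraries for a gene and not genes with each other. Targets with at least 30 counts summed over the 7 libraries were tested, which was 14608 of 23930.

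House dust mite extract carries proteases, chitin-containing particles, lipid-binding allergens and microbial products that act on the airway epithelium. In mice, repeated inhalation leads to a type 2 response in which lymphocytes make IL-4, IL-5 and IL-13. IL-5 sustains eosinophils, eotaxins draw them into tissue through the receptor CCR3, and IL-4 and IL-13 act through the transcription factor STAT6 on goblet cells and macrophages. IL-17, which T helper 17 cells make, acts with epithelial chemokines to draw in neutrophils.

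The PBS libraries held 5901279 to 7353792 counts and the HDM libraries 7105946 to 9354416. The lung markers Sftpc and Scgb1a1 had at least 100090 and 156553 counts in every library, in this order, while Marco, a receptor of alveolar macrophages, had only 7 to 33 counts. Levels are CPM, counts divided by library size after scaling with TMM factors. Receptors of the nose (olfactory, vomeronasal and trace amine receptors) summed to 57.4 to 734 CPM in the PBS libraries, highest in PBS replicate 2, and to 140, 281 and 1812 CPM in HDM replicates 1 to 3, these sums being relative to library totals without TMM scaling. Of their tested members, 6 of 250 olfactory receptors passed the test as higher (edgeR). A target passed the test at an adjusted p under 0.05 in edgeR's quasi-likelihood test, and was called when it also changed at least 2-fold. In whole lung, fewer cells of a type and less RNA per cell cannot be told apart.

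Retnla, a resistin-like protein of macrophages and epithelium in type 2 inflammation, took 0.0053% to 0.009% of all counts with PBS and 2.18% to 2.58% with HDM. In total, 1063 targets were called higher and 599 lower, which are 7.28% and 4.1% of those tested. The libraries of both groups did not overlap for 1020 of the higher and 571 of the lower targets, against 18.8% and 17.9% of all targets tested that were free of overlap in these directions. Genes named below for the smallest p or largest fold were picked among those without overlap, so their separation is no separate result. At any fold, 29.5% of targets passed, 15.3% as higher and 14.2% as lower. Counts of list members that passed, given below, are to be read beside these shares of all targets. The called targets that rose had a median log2 fold change of 1.73 and those that fell one of −1.28, beside 0.02 over all targets. Large changes were mostly rises: 185 targets rose and 10 fell at least 8-fold, and 57 rose at least 32-fold. All 14 tested targets with 0 counts in every PBS library were called higher, as only HDM counts could bring them to the minimum.

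Together the targets called higher took 3.15% to 4.08% of the counts in PBS libraries and 12.8% to 14.5% in HDM libraries, and those called lower 7.14% to 9.22% and 2.88% to 3.65%. These shares describe targets chosen on the same libraries and were not tested. Libraries within a group did not share the extreme values evenly. Of the 4 PBS libraries, replicate 4 held the highest value for 43.4% of the targets that rose and the lowest for 58.1% of those that fell. Of the 3 HDM libraries, replicate 3 held the highest value for 49.3% of the targets that rose, and replicate 2 the lowest for 46.3%. HDM replicate 3 also had the highest sum of nose receptors (1812 CPM, without TMM scaling). Whether these ranks come from the mice or from the libraries was not tested.

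**Figure D1:**
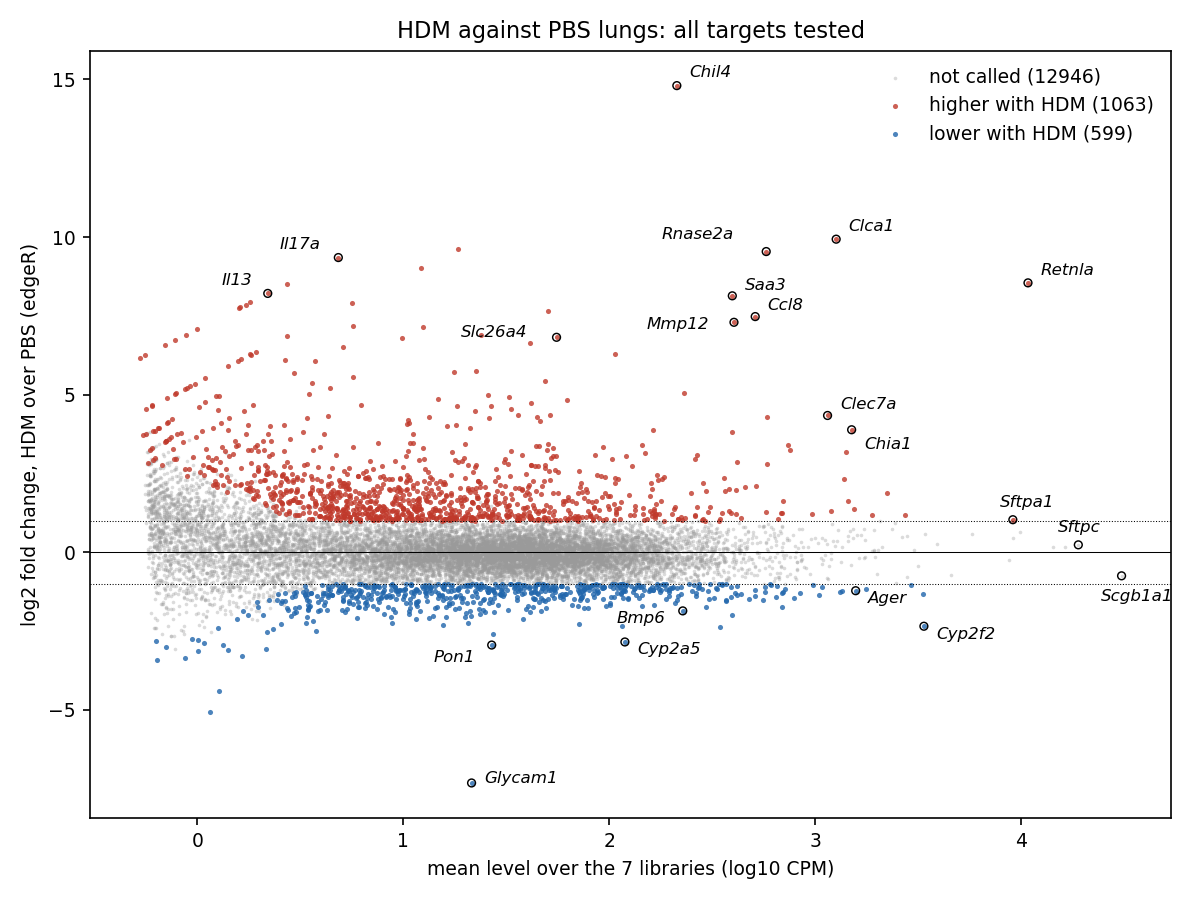
Log2 fold change (HDM over PBS, edgeR) against mean level over the 7 libraries (log10 CPM) for the 14608 targets tested, with 1063 called higher in red, 599 called lower in blue and the others in grey; dotted lines mark 2-fold. Rises reach much further than falls, and the farthest point below, Glycam1, had nearly all its counts in 1 PBS library.

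The resistin-like molecules and chitinase-like proteins rose by large factors. Retnla rose from 67.2 ± 17.5 CPM (SD, n = 4) to 25103 ± 2979 CPM (n = 3) (log2 fold change 8.55, standard error 0.24, edgeR adjusted p = 4.55e-12). Its level was 62.9, 63.8, 50.2 and 91.8 CPM in the PBS libraries and 27781, 21895 and 25634 CPM in the HDM libraries, so that the lowest HDM mouse stood far above the highest PBS mouse. Retnlg, a resistin-like gene that neutrophils express, had 12.5, 7.31, 14.9 and 27.8 CPM in the PBS libraries and 588, 499 and 461 CPM in the HDM libraries. Retnlb, the goblet cell member of this family in the mouse gut, had 0, 2, 2 and 1 counts in the PBS libraries and 185, 196 and 145 counts in the HDM libraries. The fourth member, Retn (resistin, a fat cell product), gave a log2 fold change of −1.24 that did not pass (adjusted p = 0.0985, edgeR, and 0.0429 without PBS replicate 3). Of the chitinase family, 4 of 5 tested members passed as higher, against 15.3% of all targets. Chil4, a chitinase-like protein of airway epithelium, had 0 counts in all PBS libraries and 4015, 4909 and 2556 counts in the HDM libraries, at least 1107-fold higher against a floor of 3 counts per library. Chia1, an acidic chitinase that cuts chitin, rose from 218 to 3218 CPM (log2 fold change 3.89, standard error 0.26), and Chil1, a chitinase-like protein without that activity, from 1041 to 3819 CPM (log2 fold change 1.88, standard error 0.17). Chil4 has a close relative, Chil3, which is not among the symbols of the tables, and reads of such near-identical copies may not be told apart.

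STAT6 and its relatives bind palindromes of the form TTC, a spacer and GAA, so the promoters of the called genes were searched for them. RefSeq windows (GRCm38.p6, 250 bases before to 50 after a gene's start, first window listed per gene) were matched by symbol or current symbol for 803 of the 1063 targets that rose and 431 of the 599 that fell. TTC and GAA with any 4 bases between them, the spacing that STAT6 favours, were present in 8.22% of promoters of targets that rose, 4.18% of those that fell, 5.26% of those tested and 6.99% of all 27025 windows. With any 3 bases between them, the spacing of other STAT proteins, the shares were 8.59%, 7.19%, 7.19% and 8.47%. Both patterns read the same on either strand. Of the 12 risen genes with the smallest p, 8 had a window, and 2 of these, Retnla and Pdcd1lg2, held the form with 4 bases. They are shown with Retnlg and Ccl17, which were chosen after their matches were seen, each as the 250 bases before the start on the plus strand. The windows lie at chr16:48842359-48842608, chr16:48872358-48872607, chr19:29410669-29410918 and chr8:94810203-94810452, and capitals mark the matches.
Retnla: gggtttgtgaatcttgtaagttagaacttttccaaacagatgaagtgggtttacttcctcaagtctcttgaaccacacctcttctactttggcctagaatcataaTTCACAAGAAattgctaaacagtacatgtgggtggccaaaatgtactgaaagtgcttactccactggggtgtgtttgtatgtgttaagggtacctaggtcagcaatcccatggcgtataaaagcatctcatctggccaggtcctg
Retnlg: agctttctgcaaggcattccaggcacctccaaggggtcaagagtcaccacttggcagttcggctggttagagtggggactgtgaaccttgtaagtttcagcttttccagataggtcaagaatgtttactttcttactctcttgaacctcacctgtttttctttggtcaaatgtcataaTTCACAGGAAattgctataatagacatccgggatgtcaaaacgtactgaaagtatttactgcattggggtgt
Pdcd1lg2: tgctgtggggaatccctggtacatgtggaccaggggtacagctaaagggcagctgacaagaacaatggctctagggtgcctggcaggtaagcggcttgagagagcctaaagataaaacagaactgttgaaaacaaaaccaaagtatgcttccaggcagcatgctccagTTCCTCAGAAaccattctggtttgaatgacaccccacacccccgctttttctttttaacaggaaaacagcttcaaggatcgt
Ccl17: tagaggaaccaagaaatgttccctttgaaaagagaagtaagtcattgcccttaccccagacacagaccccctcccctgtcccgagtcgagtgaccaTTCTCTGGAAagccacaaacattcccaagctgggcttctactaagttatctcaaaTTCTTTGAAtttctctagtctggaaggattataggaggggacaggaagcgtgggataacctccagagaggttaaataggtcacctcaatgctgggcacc
The match begins 145 bases before the start in Retnla, 72 in Retnlg, 82 in Pdcd1lg2 and 154 in Ccl17, which also holds the form with 3 bases 99 bases before its start. A match is a string of letters and was not tested for binding.

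Genes of eosinophils and the chemokines that draw them in rose together. Of the eosinophil list, 7 of 7 tested members passed as higher, with a median log2 fold change of 4.92, out of 10 on the panel. Rnase2a, an eosinophil-associated ribonuclease also known as Ear11, had 2.3, 1.61, 0.906 and 2.54 CPM in the PBS libraries and 1715, 1077 and 1250.5 CPM in the HDM libraries. The log2 fold change was 9.54 (standard error 0.27, edgeR adjusted p = 4.55e-12), with every HDM mouse far above every PBS mouse. Ear6, another of these ribonucleases, started higher, with 25, 22.7, 19.4 and 49.6 CPM in the PBS libraries and 262, 188 and 279 CPM in the HDM libraries. Its PBS value was highest in replicate 4, and its log2 fold change was 3.06 (standard error 0.26). Ear genes are near-identical copies, so reads may be shared between them, and Ear2 is not among the symbols of the tables. Prg2, the major basic protein of eosinophil granules, had 7, 0, 2 and 3 counts in the PBS libraries and 561, 394 and 340 counts in the HDM libraries. It thus met the minimum for testing only through the HDM libraries. Siglecf, a sialic acid-binding receptor of eosinophils and alveolar macrophages, rose from 6.49 to 28.7 CPM (log2 fold change 2.16, standard error 0.26). Epx, eosinophil peroxidase, had 0 counts in the PBS libraries and 15, 7 and 7 in the HDM libraries and fell under the minimum. Rnase2b and Prg3 of the list were under it as well, and Ear1 and Ear10 are not among the symbols.

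All 10 chemokines and receptors of the eotaxin and monocyte chemoattractant list were called higher (median log2 fold change 4.28). Ccl8, a ligand of CCR8 in the mouse, had 6.41, 6.0, 4.4 and 9.99 CPM in the PBS libraries and 1089.6, 879 and 1587 CPM in the HDM libraries (log2 fold change 7.48, standard error 0.27, edgeR adjusted p = 6.91e-11). Ccl11, eotaxin-1, had 1.97, 2.92, 2.07 and 3.17 CPM in the PBS libraries and 117, 99.4 and 115 CPM in the HDM libraries, a narrow range within each group. Ccl24, eotaxin-2, rose from 2.93 to 45.4 CPM (log2 fold change 3.95, standard error 0.19). Ccr3, the eotaxin receptor, had 0, 0, 0 and 1 counts in the PBS libraries and 47, 25 and 34 counts in the HDM libraries, near 0 in every PBS mouse. The monocyte ligands Ccl2, Ccl7 and Ccl12 had log2 fold changes of 4.26, 5.71 and 4.36, and their receptor Ccr2 one of 1.88. Ccl9, a macrophage chemokine that acts on CCR1, rose from 65.5 to 1282 CPM (log2 fold change 4.30, standard error 0.29) and Ccr1 from 8.77 to 91.8 CPM. Ccl6, of the same family, was already present with PBS and rose from 318 to 2872 CPM.

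**Figure D2:**
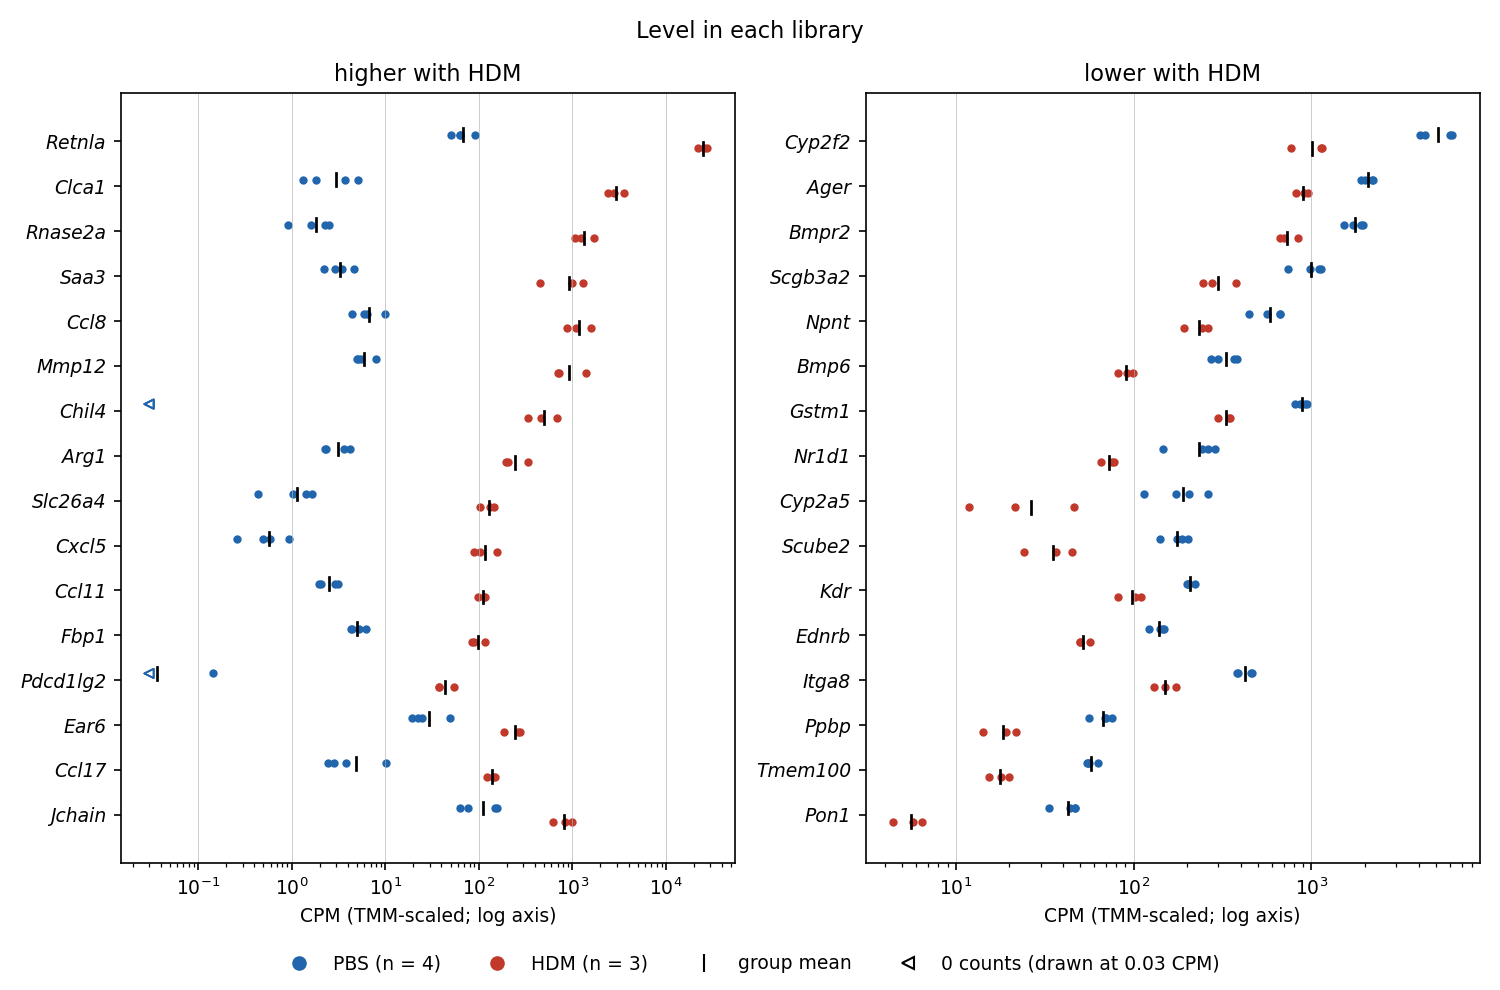
CPM in each of the 4 PBS (blue) and 3 HDM (red) libraries on a log axis, with group means as black ticks and 0 counts drawn as open triangles at 0.03 CPM, for 16 genes that rose (left) and 16 that fell (right). For each gene shown all HDM points lie on one side of all PBS points, and the distance is far wider on the left. Lack of overlap was a condition for picking some of these genes.

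The type 2 cytokines themselves were scarce, and of 9 tested members of their list, receptors included, 4 passed as higher and 1 as lower. Il13 had 0 counts in all PBS libraries and 49, 30 and 42 counts in the HDM libraries, at least 11.4-fold higher against the floor. Il4 had 0, 0, 1 and 1 counts in the PBS libraries and 31, 9 and 19 counts in the HDM libraries, and Il5 1, 0, 0 and 0 counts in the PBS libraries and 14, 3 and 31 counts in the HDM libraries. These 3 cytokines passed (adjusted p = 3.69e-05, 0.00211 and 0.00485 for Il13, Il4 and Il5, edgeR), with few reads behind each value. They and Il13ra2, the 4 higher members, reached the minimum of 30 counts only through the HDM libraries, so that passing was nearly fixed. Il9 and Il31 of the same list were under the minimum. Il13ra2, the decoy receptor of IL-13, had 0 counts with PBS and 14, 31 and 46 with HDM, whereas the signalling receptor chains Il4ra and Il13ra1 had log2 fold changes of 0.21 and 0.44 that did not pass (adjusted p = 0.562 and 0.0823, edgeR, the latter 0.0356 without PBS replicate 1). Gata3, the transcription factor of T helper 2 cells, was the lower member, with 10.0, 14, 12 and 12.5 CPM in the PBS libraries and 7.13, 8.05 and 6.7 CPM in the HDM libraries (log2 fold change −0.74, standard error 0.22, edgeR adjusted p = 0.0174), and did not pass without PBS replicate 2, HDM replicate 1 or HDM replicate 3 (adjusted p = 0.0543, 0.0544 and 0.0762, edgeR). None of the 11 tested STAT and SOCS genes, which carry cytokine signals and damp them, passed at any fold in edgeR or DESeq2, with 1 (Stat5b) at an unadjusted p under 0.05 in edgeR and an adjusted p under 0.05 without PBS replicate 3. Stat6 had 154, 167, 147 and 145 CPM in the PBS libraries and 155, 147 and 131 CPM in the HDM libraries, with overlap between groups. The epithelial alarmin Il33 rose from 62.7 ± 20.9 CPM (SD, n = 4) to 288 ± 27.4 CPM (n = 3) (log2 fold change 2.20, standard error 0.20). Its receptor Il1rl1 (ST2) rose from 4.00 to 18.8 CPM, while the other alarmins Il25 and Tslp were under the minimum.

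Of 6 tested chemokines and receptors of T helper 2 cells, 4 passed as higher (5 without PBS replicate 4). Ccr8 had a log2 fold change of 0.93 and did not pass (adjusted p = 0.0533, edgeR). The other member that did not pass had the lowest value, −1.17. Ccl17, a ligand of CCR4 made by dendritic cells, had 2.46, 3.8, 2.85 and 10.3 CPM in the PBS libraries and 143, 149 and 124 CPM in the HDM libraries. PBS replicate 4 was the high PBS value, and the log2 fold change was 4.85 (standard error 0.31). Ccl22, the other CCR4 ligand, rose from 7.04 to 41.6 CPM and Ccr4 itself from 2.66 to 9.29 CPM. Il12b, the shared chain of IL-12 and IL-23, had 0, 2, 7 and 0 counts in the PBS libraries and 11, 6 and 26 counts in the HDM libraries and did not pass (adjusted p = 0.0843, edgeR, and 0.0285 without PBS replicate 3).

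Neutrophil chemokines and acute-phase proteins made up a further group. Of 7 tested neutrophil-attracting CXC chemokines and receptors, 6 passed as higher and 1, Ppbp, as lower (log2 fold change −1.88). Of 14 tested serum amyloids and epithelial antimicrobial proteins, 9 passed as higher and 1, Bpifa1, as lower (log2 fold change −2.38). Il17a had 0 counts in all PBS libraries and 122, 54 and 93 in the HDM libraries, at least 25.2-fold higher against the floor. Of the 6 tested members of the IL-17 axis 2 passed as higher and 1 as lower. The higher count was 1 without PBS replicate 2, 3 or 4, without HDM replicate 1, 2 or 3 and with library totals only, and the lower count 2 without PBS replicate 4 and with library totals only. Cxcl5, an epithelial ligand of the neutrophil receptor CXCR2, had 0.493, 0.585, 0.259 and 0.951 CPM in the PBS libraries and 89.7, 103 and 157 CPM in the HDM libraries (log2 fold change 7.66, standard error 0.30, edgeR adjusted p = 1.31e-10). Cxcl1 rose from 9.62 ± 3.96 CPM (SD, n = 4) to 105 ± 40.9 CPM (n = 3) (log2 fold change 3.44, standard error 0.29), Cxcl3 from 1.35 to 22.5 CPM and the receptor Cxcr2 from 3.58 to 19.5 CPM. Saa3, a serum amyloid made locally by macrophages and epithelium, had 4.6, 2.92, 2.2 and 3.49 CPM in the PBS libraries and 457, 991 and 1311 CPM in the HDM libraries. HDM replicate 1 was the lowest of its group, and all HDM mice lay far above PBS (log2 fold change 8.14, standard error 0.35, edgeR adjusted p = 4.71e-10). Lcn2, lipocalin 2, which binds bacterial siderophores, rose from 144 ± 19.6 CPM (SD, n = 4) to 1531 ± 235 CPM (n = 3). S100a8 and S100a9, the calprotectin chains of neutrophils, rose from 31.7 to 170.2 CPM and from 67 to 334 CPM. Of the 13 tested neutrophil genes 8 passed as higher, and Ltf (lactoferrin) and Ngp, of later neutrophil granules, had log2 fold changes of 0.02 and −0.57 that did not pass (adjusted p = 0.971 and 0.345, edgeR). In the IL-1 family, Il1b rose from 13.1 to 87.5 CPM, its antagonist Il1rn from 3.88 to 41.6 CPM and the decoy receptor Il1r2 from 1.75 to 23.6 CPM, while Il1a had 15.3, 14.8, 13.2 and 16 CPM with PBS and 16.2, 13.8 and 14.3 CPM with HDM and did not pass. C3, the central complement protein, rose from 511 ± 199 CPM (SD, n = 4) to 2543 ± 332 CPM (n = 3), and its receptor C3ar1 from 8.69 to 54.4 CPM.

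Mucus genes of goblet cells rose, with 15 of 18 tested members higher and a median log2 fold change of 2.21. Clca1, a secreted protein of goblet cells that shapes mucus, had 1.81, 1.32, 3.75 and 5.07 CPM in the PBS libraries and 2818, 3608 and 2415 CPM in the HDM libraries (log2 fold change 9.93, standard error 0.32, edgeR adjusted p = 1.77e-11). Muc5ac, the inducible airway mucin, rose from 3.39 ± 1.23 CPM (SD, n = 4) to 93.3 ± 22 CPM (n = 3) (log2 fold change 4.75, standard error 0.24), and Muc5b, the mucin made at rest, from 32.5 to 68.5 CPM (log2 fold change 1.07, standard error 0.22). Agr2, which helps fold mucins, rose from 5.53 to 100.5 CPM, Fcgbp, an IgG Fc-binding mucus protein, from 1.84 to 57.5 CPM, and the trefoil factor Tff2 from 19.2 to 193 CPM. Spdef, the transcription factor of goblet cell fate, was low and rose from 2.31 to 9.51 CPM. Pigr, the receptor that carries polymeric antibodies across epithelium, rose from 161 ± 29.6 CPM (SD, n = 4) to 1540.0 ± 466 CPM (n = 3). Muc1, a membrane mucin, did not pass, with 162, 145, 172 and 134 CPM in the PBS libraries and 197, 145 and 115 CPM in the HDM libraries.

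Epithelial ion transport split. Slc26a4 (pendrin), an exchanger of chloride and bicarbonate that airway epithelium makes under IL-13 and IL-17, had 1.64, 0.439, 1.04 and 1.43 CPM in the PBS libraries and 133, 104 and 147 CPM in the HDM libraries (log2 fold change 6.82, standard error 0.25, edgeR adjusted p = 7.30e-11). The chains of the epithelial sodium channel fell, Scnn1a from 365 to 184 CPM, Scnn1b from 93.7 to 29.2 CPM and Scnn1g from 208 to 92.9 CPM, with log2 fold changes of −0.99 (standard error 0.14), −1.68 (standard error 0.16) and −1.16 (standard error 0.17). Cftr, the chloride channel of cystic fibrosis, had 40.4, 31.1, 38.8 and 30.4 CPM with PBS and 51.3, 40.8 and 35.5 CPM with HDM and did not pass. Of tight junction genes 9 of 20 were lower, among them Ocln (occludin, log2 fold change −1.08, standard error 0.15) and Tjp1 (the scaffold ZO-1, −1.04, standard error 0.15), and 2 higher (0 without HDM replicate 1, and 1 without PBS replicate 1, 2 or 3, without HDM replicate 2 or with library totals only).

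Arg1, Fbp1, Mmp12 and Mrc1 were among the macrophage genes that rose. Arg1, arginase 1, which STAT6 drives in mouse macrophages, had 2.3, 4.24, 2.33 and 3.65 CPM in the PBS libraries and 333, 206 and 196 CPM in the HDM libraries (log2 fold change 6.29, standard error 0.25, edgeR adjusted p = 1.31e-10). Fbp1, a gluconeogenic phosphatase, had 6.24, 4.39, 4.27 and 5.23 CPM in the PBS libraries and 90.2, 85.2 and 118 CPM in the HDM libraries (log2 fold change 4.29, standard error 0.19), the only member of the list of glycolytic enzymes that rose more than 4-fold. Mmp12, the macrophage elastase, had 5.59, 4.97, 5.18 and 8.09 CPM in the PBS libraries and 1387, 699.9 and 713 CPM in the HDM libraries, highest in HDM replicate 1 (log2 fold change 7.30, standard error 0.28, edgeR adjusted p = 1.14e-10). Timp1, an inhibitor of metalloproteinases, rose from 2.3 ± 1.03 CPM (SD, n = 4) to 58.9 ± 15.3 CPM (n = 3), whereas Timp3, the inhibitor bound to matrix, fell from 768 to 271 CPM (log2 fold change −1.50, standard error 0.16). Mrc1, the mannose receptor, rose from 61.1 to 186 CPM, and the scavenger receptor Marco gave 33, 17, 23 and 14 counts in the PBS libraries and 13, 17 and 7 counts in the HDM libraries and did not pass.

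Of the C-type lectins of myeloid cells, 11 of 15 rose. Clec7a (Dectin-1), the receptor for β-glucans of fungi and mites, had 129, 89.8, 75.5 and 203 CPM in the PBS libraries and 2736, 2035 and 2773 CPM in the HDM libraries (log2 fold change 4.34, standard error 0.28, edgeR adjusted p = 3.54e-08). Clec4n (Dectin-2), which binds mannans, rose from 17.3 to 105 CPM, and Clec4a2, an inhibitory receptor of the same cluster, from 11.1 to 109.6 CPM. Cd209e, a relative of DC-SIGN, had 0, 0, 0 and 1 counts in the PBS libraries and 261, 225 and 178 counts in the HDM libraries, absent but for 1 count with PBS.

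Genes that mark lipid-handling TREM2-positive macrophages rose in 12 of 13 cases. Trem2 rose from 9.23 ± 2.16 CPM (SD, n = 4) to 94.4 ± 30.4 CPM (n = 3) (log2 fold change 3.36, standard error 0.23), Spp1 (osteopontin) from 60.0 to 839 CPM, Lgals3 (galectin-3) from 34.3 to 302 CPM and C1qb from 26.3 to 205 CPM. Among genes of macrophage fusion, 7 of 9 rose. Dcstamp and Ocstamp, which are needed for cells to fuse into osteoclasts and giant cells, were nearly absent with PBS. Dcstamp had 0, 3, 4 and 0 counts in the PBS libraries and 147, 56 and 40 counts in the HDM libraries, and Ocstamp had 0, 2, 3 and 0 counts in the PBS libraries and 138, 25 and 39 counts in the HDM libraries. Atp6v0d2, a proton pump subunit of macrophages, rose from 58.1 to 319 CPM and Acp5, the tartrate-resistant phosphatase, from 29.9 to 163 CPM. Lysosomal cathepsins rose in 10 of 13 cases, with Ctss, which trims the class II invariant chain, going from 165 to 1140.4 CPM and Ctsb from 763 to 2359.9 CPM.

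Fc receptors and genes of antigen presentation rose as well. Fcer1g, the signalling chain shared by IgE and IgG receptors, rose from 116 ± 23.3 CPM (SD, n = 4) to 428 ± 54.3 CPM (n = 3) (log2 fold change 1.89, standard error 0.16), and Fcgr3, an activating IgG receptor, from 63.6 to 539 CPM (log2 fold change 3.09, standard error 0.21). Fcer1a, the IgE-binding chain, was under the minimum, and Ms4a2, its β chain, did not pass. In the class II list 8 of 9 rose, at a median log2 fold change of 0.90: H2-Aa rose from 884 to 1649.5 CPM and Cd74, the invariant chain, from 4763 to 7091 CPM (adjusted p = 0.0134, edgeR, and 0.0919 without HDM replicate 1). Itgax (CD11c) rose from 65.5 ± 11 CPM (SD, n = 4) to 345 ± 107 CPM (n = 3), Cd86 from 6.59 to 23.7 CPM and Irf4, a transcription factor of type 2 dendritic cells and macrophages, from 11.8 to 35 CPM. Zbtb46, which marks conventional dendritic cells, had 25.8, 32.5, 27.7 and 27.8 CPM with PBS and 28.8, 28 and 32.2 CPM with HDM and did not pass. The actin machinery of leukocytes was higher in 24 of 28 members (median log2 fold change 0.88). The Arp2/3 subunit Arpc1b, which blood cells favour, rose from 80.8 ± 7.43 CPM (SD, n = 4) to 203 ± 41.9 CPM (n = 3), while its sister Arpc1a gave 0.25 and did not pass (adjusted p = 0.169, edgeR). The NADPH oxidase subunits Cyba, Ncf1 and Ncf4 had log2 fold changes of 2.11, 1.76 and 2.02.

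Genes of T cells and of their activation were higher in part. Of 16 tested T cell genes 8 passed as higher (5 without HDM replicate 1), with a median log2 fold change of 0.66. Cd4 rose from 23.5 ± 6.74 CPM (SD, n = 4) to 45.4 ± 8.29 CPM (n = 3), whereas Cd8a had 15.8, 7.9, 9.19 and 17.6 CPM in the PBS libraries and 11, 10.0 and 17.1 CPM in the HDM libraries, fully overlapping. Of costimulators and checkpoints 10 of 14 passed as higher, with a median of 2.27. Pdcd1 (PD-1) rose from 1.16 ± 0.929 CPM (SD, n = 4) to 32.8 ± 10.8 CPM (n = 3) (log2 fold change 4.85, standard error 0.41), and Pdcd1lg2 (PD-L2), its ligand on macrophages and dendritic cells under IL-4, had 0, 1, 0 and 0 counts in the PBS libraries and 472, 264 and 288 counts in the HDM libraries. Cd274 (PD-L1), the other ligand, had 24, 30.1, 29.8 and 22.4 CPM with PBS and 36.5, 32.5 and 33.8 CPM with HDM and did not pass. Icos and Ctla4 rose from 3.1 to 15.7 CPM and from 2.96 to 15.1 CPM, and Tnfrsf9 (4-1BB) from 5.48 ± 1.12 CPM (SD, n = 4) to 114 ± 25.6 CPM (n = 3). Among 13 genes of killer lymphocytes 1 passed as higher and 1 as lower, 7.69% each against 15.3% and 14.2% of all targets. The lower one was Prf1 (perforin), which fell from 11.2 to 4.25 CPM (log2 fold change −1.38, standard error 0.31). The higher count was 0 without PBS replicate 1, 2 or 3, without HDM replicate 2 and with library totals only, and the lower count 2 without PBS replicate 3.

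Of the B cell and plasma cell list 7 of 22 tested members passed as higher, 2 as lower and 13 did not pass. Jchain, which links IgA and IgM into polymers, had 150.3, 63.6, 76 and 157 CPM in the PBS libraries and 1002, 844 and 616 CPM in the HDM libraries (log2 fold change 2.88, standard error 0.28, edgeR adjusted p = 2.57e-06). Mzb1, a chaperone of antibody assembly, rose from 16.6 ± 6.96 CPM (SD, n = 4) to 72.7 ± 28.4 CPM (n = 3). Prdm1 (BLIMP-1), the factor that sets plasma cell fate and is also made by other cells, fell from 30.1 to 19.5 CPM (adjusted p = 0.0344, edgeR). Its adjusted p was 0.0539 and 0.116 without PBS replicates 1 and 2, and 0.0948 and 0.14 without HDM replicates 1 and 2 (edgeR). Pax5, the factor that holds B cell identity, fell from 37.7 to 20.4 CPM (log2 fold change −0.89, standard error 0.20). Of 12 tested mast cell genes 3 were higher and 2 lower, 25% and 16.7% against 15.3% and 14.2% of all targets. Mcpt1, a protease of mucosal mast cells, had 0, 2, 4 and 0 counts in the PBS libraries and 45, 32 and 14 counts in the HDM libraries. Its neighbour Mcpt2 had 0 counts in all PBS libraries and 20, 22 and 6 in the HDM libraries, while the general mast cell genes Cpa3 and Tpsb2 did not pass (adjusted p = 0.316 and 0.639, edgeR). Kit and Gata2, which lung endothelium also expresses, fell from 111 to 48.5 CPM and from 148 to 68 CPM. Proliferation genes were higher in 18 of 21 cases (median log2 fold change 1.59), with Mki67 from 7.08 to 24 CPM, Top2a from 11.2 to 38.3 CPM and Birc5 from 12.2 to 52.9 CPM.

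Of the lipoxygenase and prostanoid list 10 of 15 tested members passed as higher and 2 as lower. Alox15, the 12/15-lipoxygenase of eosinophils and macrophages, had 5.42, 0.585, 1.42 and 2.54 CPM in the PBS libraries and 80.2, 76.1 and 63.2 CPM in the HDM libraries (log2 fold change 4.91, standard error 0.35, edgeR adjusted p = 1.15e-07), and Tbxas1, thromboxane synthase, rose from 8.36 to 60.5 CPM. Alox5ap, the activator of 5-lipoxygenase, rose from 58.7 to 168 CPM, and Ptgs2 (cyclooxygenase-2) had 13.6, 17.5, 10.6 and 19.8 CPM with PBS and 19.6, 16.7 and 15.4 CPM with HDM and did not pass. The lower members were Alox12, the platelet-type 12-lipoxygenase, and Ptgis, prostacyclin synthase, with log2 fold changes of −1.74 (standard error 0.32) and −0.72 (standard error 0.14). Pla2g7, the hydrolase of platelet-activating factor, rose from 38 to 252 CPM (log2 fold change 2.73, standard error 0.14). Of Toll-like receptors and co-receptors 10 of 14 rose, with Cd14 from 38 to 125 CPM and Tlr4, the endotoxin receptor, from 54.2 to 102 CPM. Tlr5, the flagellin receptor, was the 1 member that passed as lower, at a log2 fold change of −1.73 (standard error 0.29), and without PBS replicate 3 or with library totals only 2 members did. Vcam1, an adhesion molecule of endothelium that binds eosinophils and lymphocytes, rose from 91.2 ± 5.9 CPM (SD, n = 4) to 139 ± 21.6 CPM (n = 3) (log2 fold change 0.61, standard error 0.13), short of 2-fold, and Icam1 gave −0.23 and did not pass (adjusted p = 0.21, edgeR). Interferon-stimulated genes mostly did not pass, with 5 higher and 1 lower of 17. Their summed level was 1311 CPM in HDM replicate 3, 639.8 and 565 CPM in the other HDM libraries and 559 to 670.2 CPM with PBS, and their median log2 fold change of 0.29 was −0.11 without HDM replicate 3.

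**Figure D3:**
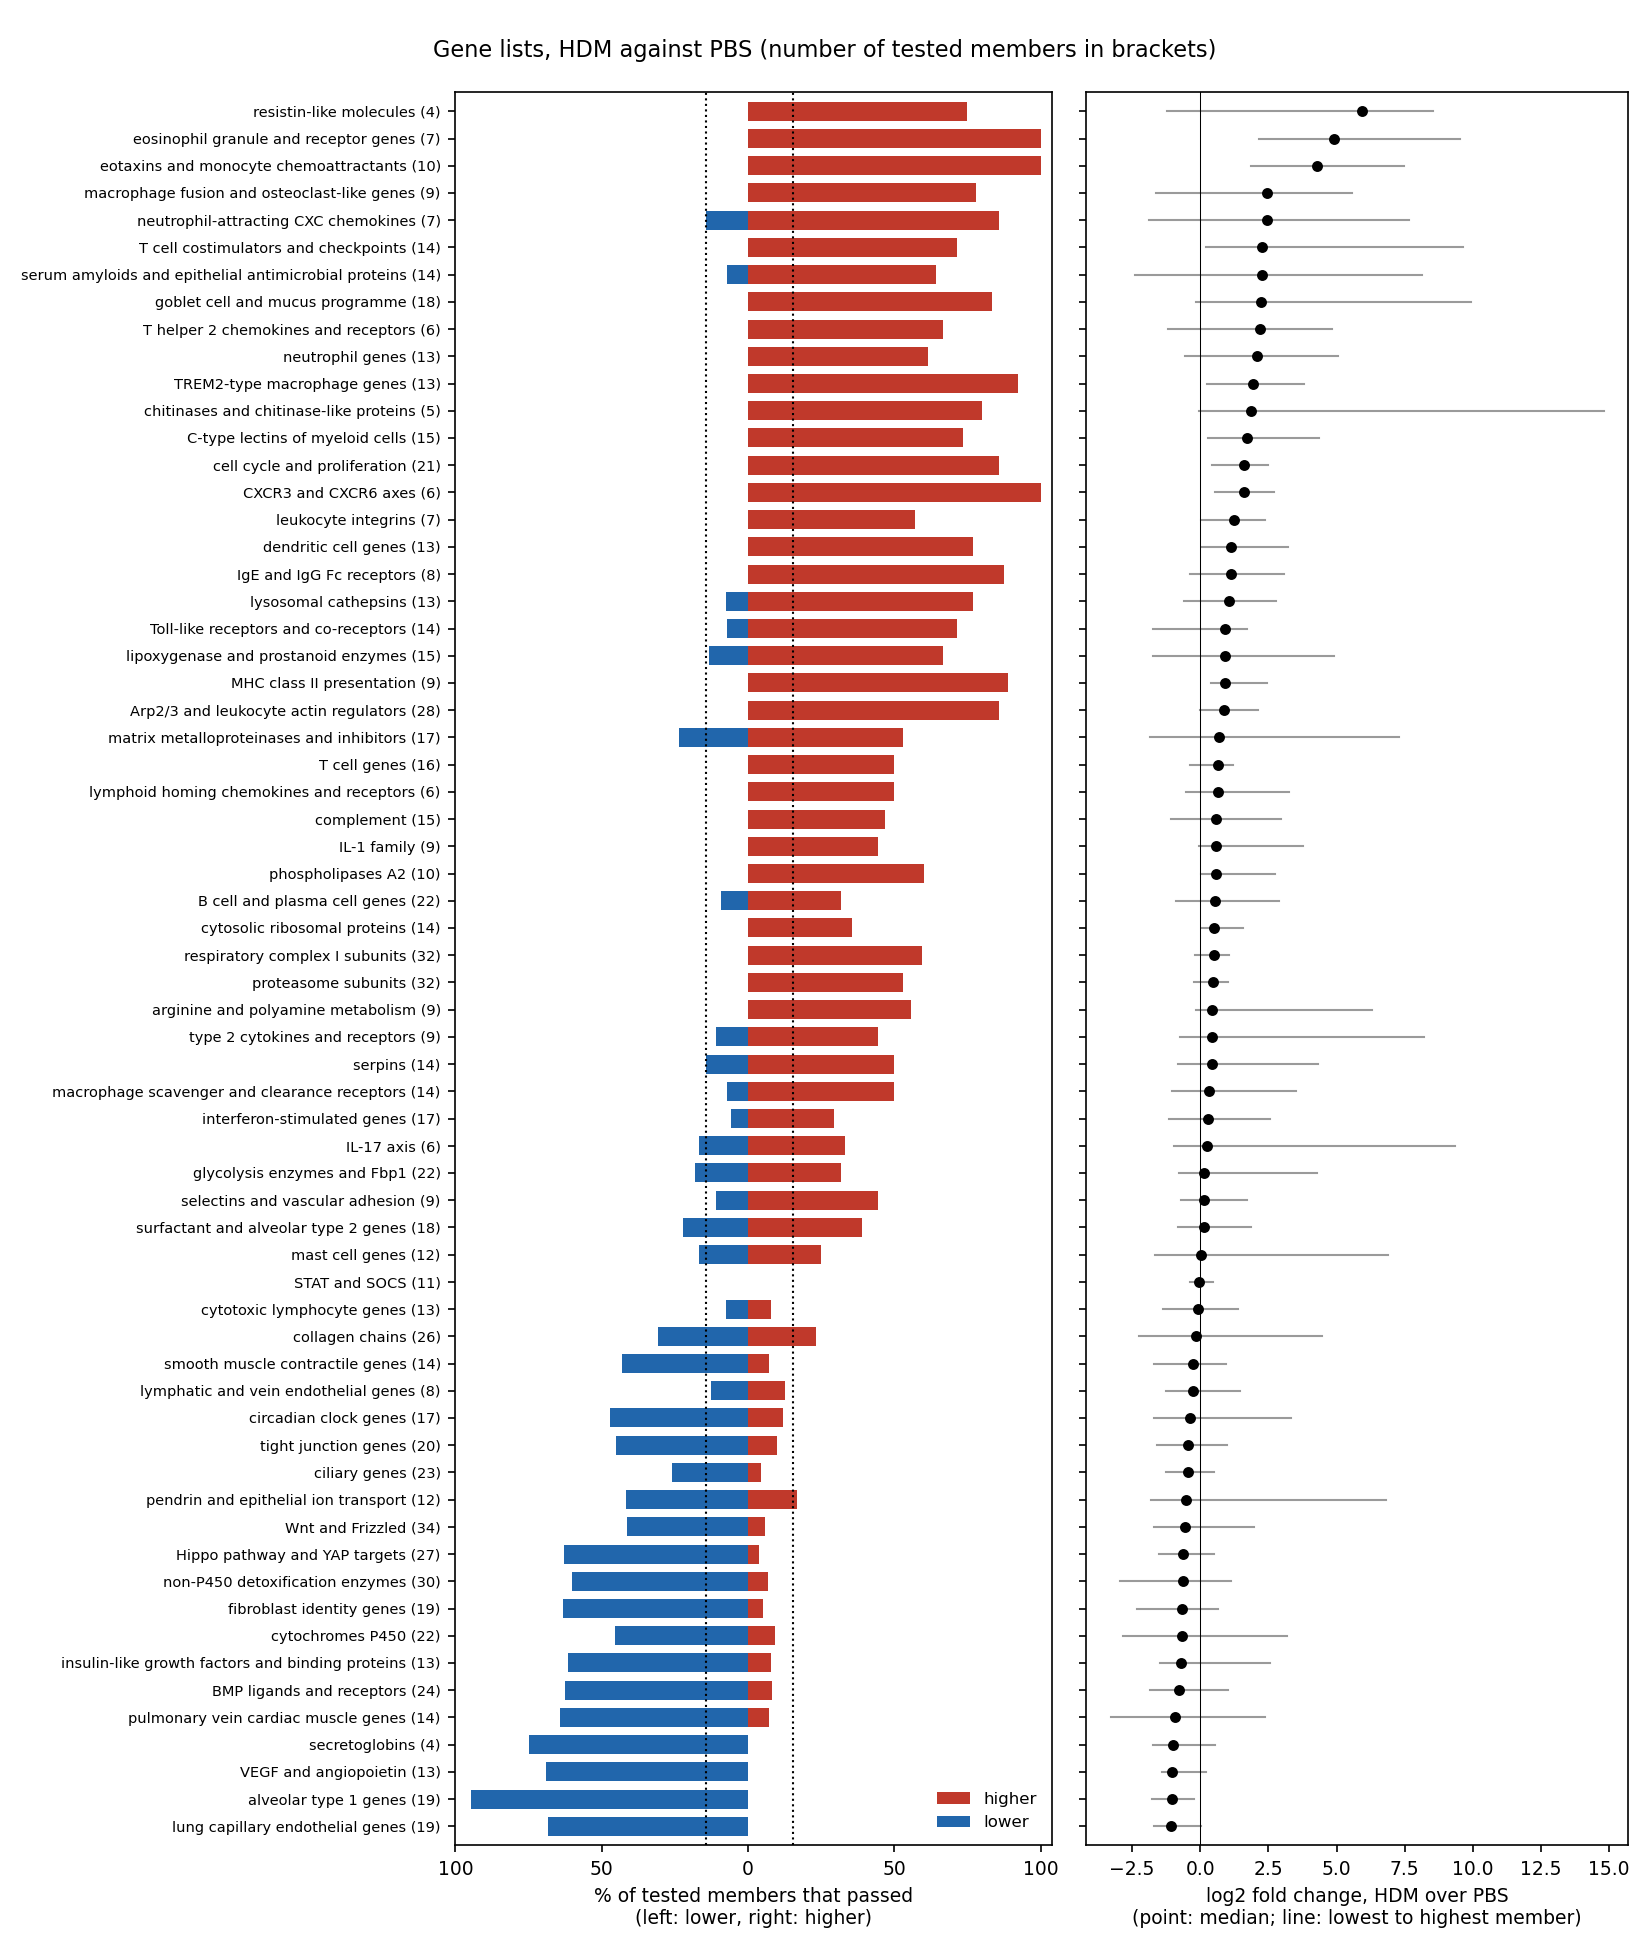
Share of tested members of each gene list that passed the test as higher (red, to the right) or lower (blue, to the left), and the median (point) with the lowest and highest member (line) of the log2 fold change, HDM over PBS. Dotted lines mark the shares over all targets, 15.3% higher and 14.2% lower. All 10 eotaxin list members passed as higher and 18 of 19 alveolar type 1 genes as lower.

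Among the genes that fell were those of the gas-exchange part of the lung. Alveolar type 1 cells are the thin cells across which gas passes, and 18 of 19 of their genes were lower, against 14.2% of all targets, with a median log2 fold change of −1.04. Their summed level was 10832 to 11787 CPM with PBS and 5533 to 6304 CPM with HDM. Ager, the receptor for advanced glycation products and the best known marker of these cells, had 1909, 2224, 2195 and 1997 CPM in the PBS libraries and 907, 956 and 821 CPM in the HDM libraries (log2 fold change −1.22, standard error 0.14, edgeR adjusted p = 1.16e-05). Rtkn2 and Akap5, of the same cells, fell from 260.3 to 109 CPM and from 514 to 176 CPM. Aqp5, a water channel, fell from 194 to 102 CPM. The exception was Pdpn (podoplanin), which lymphatic vessels and fibroblasts also express, with 377, 371, 391 and 382 CPM with PBS and 290.3, 310.4 and 374 CPM with HDM.

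Capillary genes fell as well, 13 of 19 lower with a median of −1.08. Ednrb, the endothelin receptor of aerocyte capillaries, had 148, 146, 141 and 123 CPM in the PBS libraries and 49.8, 56.9 and 49.8 CPM in the HDM libraries (log2 fold change −1.41, standard error 0.13, edgeR adjusted p = 2.16e-06). Tmem100, a membrane protein of capillary endothelium, fell from 57.4 ± 3.9 CPM (SD, n = 4) to 17.7 ± 2.31 CPM (n = 3), and Kdr, the main receptor for VEGF, from 208 ± 10.2 CPM (SD, n = 4) to 97.7 ± 14.3 CPM (n = 3). Car4, a carbonic anhydrase on the same capillaries, had 453, 378, 322 and 409 CPM in the PBS libraries and 306, 428 and 447 CPM in the HDM libraries, with no separation of groups. Lyve1 and Prox1 of lymphatic vessels did not pass, with log2 fold changes of −0.02 and −0.20 (adjusted p = 0.908 and 0.757, edgeR). Ligands and receptors of vessel growth fell together, 9 of 13 lower. Vegfa, which type 1 cells supply to capillaries, had 649, 1011, 809 and 564 CPM in the PBS libraries and 276, 374 and 309 CPM in the HDM libraries (log2 fold change −1.24, standard error 0.19). Tek (Tie2), the angiopoietin receptor, fell from 359 to 137 CPM, and its ligand Angpt1 from 122 to 55.4 CPM. Epas1 (HIF-2α), a hypoxia-inducible factor of endothelium, fell from 4520.0 ± 759 CPM (SD, n = 4) to 1796 ± 302 CPM (n = 3), the largest loss of CPM among genes called lower other than Cyp2f2. The membrane proteins Tspan7 and Calcrl, the latter a receptor for adrenomedullin, fell from 1407 to 555 CPM and from 1407 to 654 CPM.

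BMP signalling, which maintains lung vessels, was lower in 15 of 24 tested members and higher in 2 (1 without PBS replicate 1, 3 or 4, without HDM replicate 2 or 3 or with library totals only). Bmp6 had 299.5, 382, 367 and 271 CPM in the PBS libraries and 92, 98.8 and 82.3 CPM in the HDM libraries (log2 fold change −1.86, standard error 0.15, edgeR adjusted p = 5.89e-07). Bmpr2, the receptor whose loss causes heritable pulmonary arterial hypertension in people, had 1888, 1707, 1949 and 1529 CPM in the PBS libraries and 697, 839 and 665 CPM in the HDM libraries (log2 fold change −1.27, standard error 0.15). Its partners on endothelium, Acvrl1 (ALK1) and Eng (endoglin), fell from 437 to 217 CPM and from 928 to 378 CPM, and the feedback inhibitors Smad6 and Smad7 from 99.8 to 43.3 CPM and from 145 to 73.3 CPM. The target gene Id1 did not pass, with a log2 fold change of 0.05 (adjusted p = 0.89, edgeR), and Id2 rose from 64.8 to 132 CPM.

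**Figure D4:**
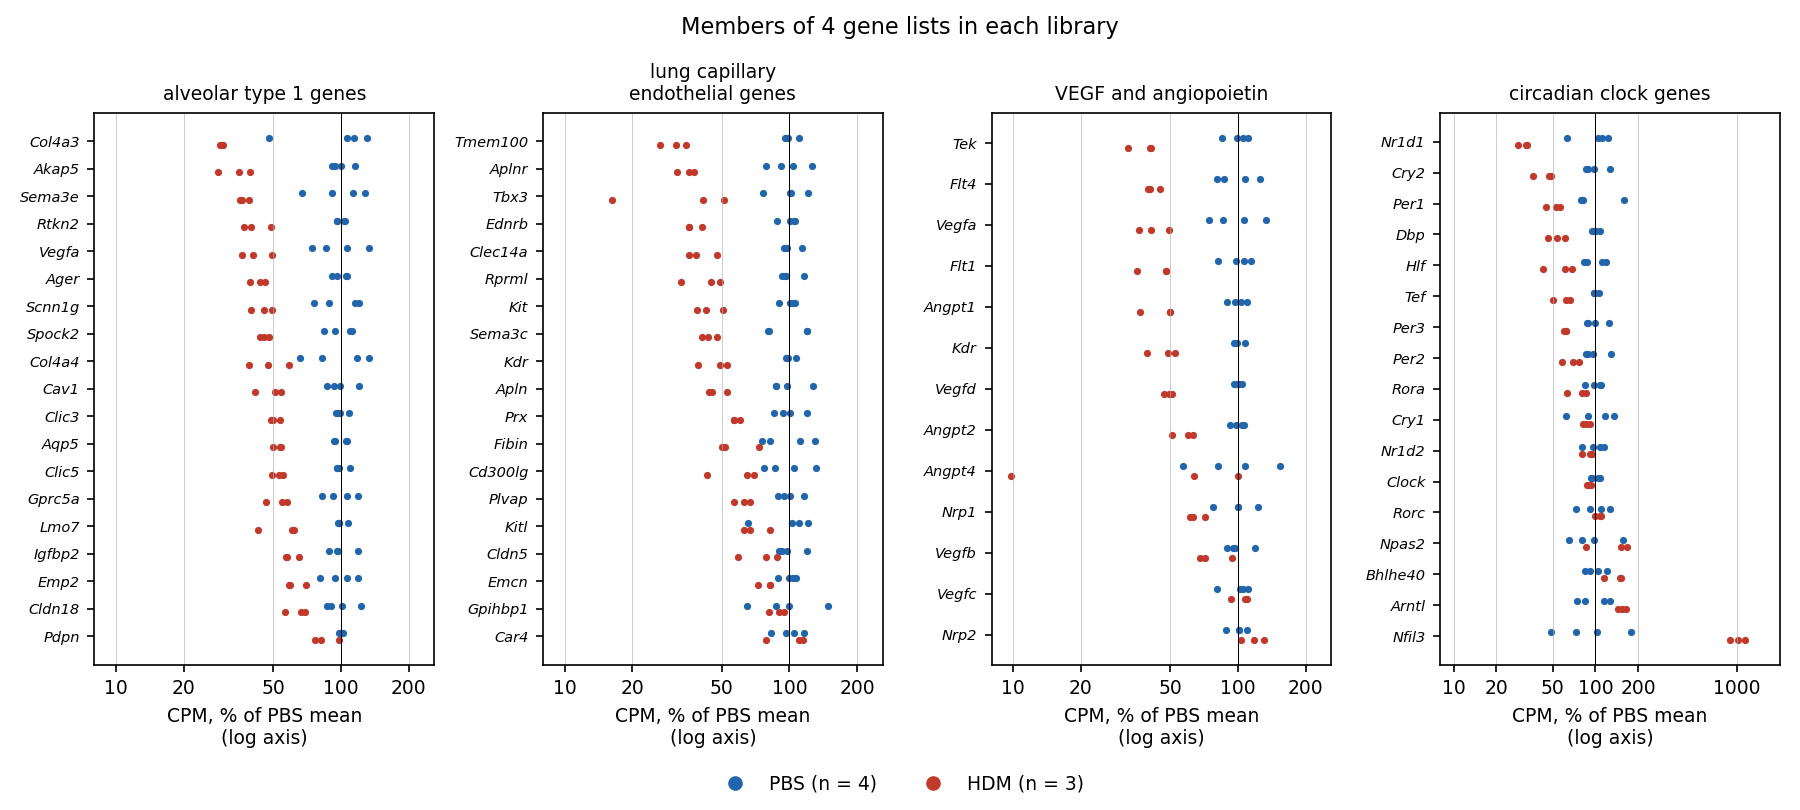
CPM of each tested member of 4 gene lists in each library, as a percentage of the mean of the 4 PBS libraries on a log axis (blue, PBS; red, HDM). The HDM points of the 19 alveolar type 1 genes lie to the left of the PBS mean, least so for Pdpn, the member that did not pass, and Nfil3 lies far to the right among the clock genes.

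Detoxifying enzymes of secretory airway cells fell. Cyp2f2, a cytochrome of club cells, had 4059, 6157, 5993 and 4363 CPM in the PBS libraries and 1140.1, 1129 and 767 CPM in the HDM libraries, the largest loss of CPM of any gene called lower (log2 fold change −2.34, standard error 0.20, edgeR adjusted p = 8.52e-07). Cyp2a5 had 261, 115, 205 and 173 CPM in the PBS libraries and 11.8, 46.2 and 21.4 CPM in the HDM libraries, lowest in HDM replicate 1, and Cyp4b1 fell from 443 to 164 CPM. Over all cytochromes P450 10 of 22 fell and 2 rose, the latter being Cyp7b1, an oxysterol hydroxylase, and Cyp4f18, a leukotriene B4 hydroxylase of myeloid cells. Pon1, a paraoxonase, had 44.2, 33.5, 46.9 and 46.9 CPM in the PBS libraries and 5.75, 6.5 and 4.47 CPM in the HDM libraries (log2 fold change −2.94, standard error 0.21, edgeR adjusted p = 8.47e-08). Of other detoxifying enzymes 18 of 30 fell, among them Gstm1, a glutathione transferase, from 882 ± 61.7 CPM (SD, n = 4) to 330.1 ± 28.8 CPM (n = 3). Gsto1, a glutathione transferase of another class, rose from 147 to 322 CPM. Scgb1a1, the club cell secretoglobin, fell from 37167 ± 2634 CPM (SD, n = 4) to 22166 ± 1416 CPM (n = 3) (log2 fold change −0.75, standard error 0.15), and Scgb3a2 further, from 989 to 299.8 CPM (log2 fold change −1.72, standard error 0.19). Ciliary genes mostly did not pass: 6 of 23 fell, 26.1% against 14.2% of all targets, and 1 rose. The lower count was 3 without HDM replicate 1, PBS replicate 2 or PBS replicate 3. The higher count was 0 without PBS replicate 1, 2 or 3, without HDM replicate 2 or 3 or with library totals only. Foxj1, the factor that sets the ciliated fate, had 43.5, 45.9, 44.8 and 46.8 CPM with PBS and 41.6, 45.3 and 42.1 CPM with HDM.

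Alveolar type 2 cells, which make surfactant, showed no shared direction: 7 of 18 genes rose, 4 fell and the median was 0.12. Sftpc, specific to these cells, had 16446, 15324, 13353 and 25308 CPM in the PBS libraries and 24642, 18298 and 19304 CPM in the HDM libraries and did not pass (adjusted p = 0.415, edgeR). Without PBS replicate 4, the highest PBS library, it passed at an adjusted p of 0.0278, and with the replicate number as a block at one of 0.0179 (edgeR). Sftpb, needed to spread surfactant, fell from 3419 ± 240.2 CPM (SD, n = 4) to 1985 ± 462 CPM (n = 3), whereas Sftpa1, a collectin that binds microbes, rose from 6291 ± 1192 CPM (SD, n = 4) to 12882 ± 1710.5 CPM (n = 3). Cxcl15 (lungkine), a chemokine of lung epithelium in mice, rose from 1218 to 2778 CPM.

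In the connective tissue, 12 of 19 fibroblast genes fell and 1 rose. Scube2, a secreted protein that helps release hedgehog, had 186, 176, 202 and 140.0 CPM in the PBS libraries and 36.5, 45 and 24.2 CPM in the HDM libraries (log2 fold change −2.32, standard error 0.20, edgeR adjusted p = 7.82e-07), and Pdgfra, the receptor that marks alveolar fibroblasts, fell from 154 ± 29.3 CPM (SD, n = 4) to 62.1 ± 6.98 CPM (n = 3). Npnt (nephronectin) fell from 586 to 232 CPM. Collagens went both ways, 6 higher and 8 lower of 26. Col1a1, the main fibrillar chain, had 305, 312, 256 and 167 CPM with PBS and 281, 243 and 305 CPM with HDM and did not pass, and Col3a1 rose from 186 ± 31 CPM (SD, n = 4) to 457 ± 111 CPM (n = 3). Col6a5, a chain of beaded microfibrils, had 1.81, 2.49, 3.11 and 1.11 CPM in the PBS libraries and 34.2, 62.4 and 50.2 CPM in the HDM libraries (log2 fold change 4.48, standard error 0.28, edgeR adjusted p = 3.20e-08), and Col12a1, a chain that decorates fibrils, fell from 31 to 6.63 CPM. The basement membrane chain Col4a3, of alveoli and glomeruli, fell from 114 to 33.4 CPM. Tnxb, tenascin-X, fell from 108 ± 35.7 CPM (SD, n = 4) to 22.5 ± 2.66 CPM (n = 3). Of smooth muscle genes 6 of 14 fell, 3 without PBS replicate 2 or HDM replicate 3, and Myh11, the myosin of contractile muscle, had 212, 136, 183 and 139.9 CPM in the PBS libraries and 168, 166 and 172 CPM in the HDM libraries, with overlap. Itga8, an integrin of alveolar myofibroblasts, fell from 422 ± 46 CPM (SD, n = 4) to 151 ± 21.5 CPM (n = 3). Of the growth pathway lists, Hippo genes were lower in 17 of 27, Wnt genes 14 of 34 and insulin-like growth factors with their binding proteins 8 of 13. Igf1 itself rose from 16.4 ± 1.97 CPM (SD, n = 4) to 97 ± 35.1 CPM (n = 3) (log2 fold change 2.57, standard error 0.21), and its receptor Igf1r fell from 122 to 56.8 CPM.

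Genes of the circadian clock differed as well. The clock is a loop in which BMAL1 and CLOCK switch on their own repressors through the E-box CACGTG, so the levels depend on the hour at which tissue is taken, and the labels do not give that hour per mouse. Of 17 tested clock genes 8 were lower and 2 higher (1 without PBS replicate 2, HDM replicate 1 or HDM replicate 2 or with library totals only). Nr1d1 (REV-ERBα), a repressor, had 261, 287, 242 and 147 CPM in the PBS libraries and 77.5, 65.9 and 76 CPM in the HDM libraries (log2 fold change −1.68, standard error 0.20, edgeR adjusted p = 1.62e-05), with PBS replicate 4 the lowest of the PBS mice. The output factor Dbp had 267, 252, 245 and 236 CPM in the PBS libraries and 153, 134 and 115 CPM in the HDM libraries, and Cry2, a repressor, fell from 93.2 to 40.8 CPM. Nfil3, which opposes Dbp and also acts in innate and type 2 lymphocytes, had 0.822, 0.585, 0.388 and 1.43 CPM in the PBS libraries and 9.09, 7.2 and 8.15 CPM in the HDM libraries (log2 fold change 3.34, standard error 0.41). Arntl (BMAL1) and Clock, the positive arm, gave 0.62 and −0.15 and did not pass (adjusted p = 0.282 and 0.431, edgeR). CACGTG was in 6.72% of promoters of targets that rose, 6.5% of those that fell, 9.33% of those tested and 7.24% of all 27025 windows. The part of the sampling hour in these values was not tested.

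Genes of core cell machinery rose by small factors. Of respiratory complex I 19 of 32 subunits passed as higher, with a median log2 fold change of 0.50. The count was 10 without HDM replicate 3. Of proteasome subunits 17 of 32 passed as higher (median 0.49). Psmb8, a subunit of the immunoproteasome, rose from 158 ± 30.5 CPM (SD, n = 4) to 313 ± 40.8 CPM (n = 3), and Ndufb9, a subunit of complex I, from 219.7 to 378 CPM. Gpx1, a glutathione peroxidase that removes hydrogen peroxide, was among the largest gains in CPM and rose from 1767 ± 299.6 CPM (SD, n = 4) to 4005 ± 396 CPM (n = 3).

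Some called targets lay beside each other in the genome (positions from GENCODE on GRCm38, the assembly of mm10). There were 21 runs of at least 3 adjacent tested targets called higher, with 81 targets in all, and 4 such runs called lower, with 12. On chromosome 11, all 6 tested targets from Ccl2 to Ccl1 (82035571 to 82305690) were called higher, at log2 fold changes of 4.26 for Ccl2, 5.71 for Ccl7, 5.44 for Ccl11, 4.36 for Ccl12, 7.48 for Ccl8 and 3.74 for Ccl1, while the nearest tested targets on both sides were not called. A second run of 7 on the same chromosome (83572919 to 83752642) held Ccl9, Ccl6, Ccl3, Ccl4 and Wfdc17, and Ccl5, next to it, stayed under 2-fold at 0.54. Retnlb, Retnla and Retnlg lay together on chromosome 16 (48816856 to 48874496). The longest run, 8 targets on chromosome 12 (103614786 to 104414329), was of serpins, inhibitors of serine proteases, from Serpina10 at 1.55 to Serpina3n at 3.08. Serpina10 did not pass without HDM replicate 1 (adjusted p = 0.0707, edgeR). Serpina11 in it had 0 counts with PBS and 61, 21 and 20 with HDM. The lower runs included Cyp2b10, Cyp2a5 and Cyp2f2 on chromosome 7 (25897620 to 27133660) and Pdgfra, Kit and Kdr on chromosome 5 (75152292 to 75978458). Members of such families are similar in sequence, so that some reads may be shared between them.

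**Figure D5:**
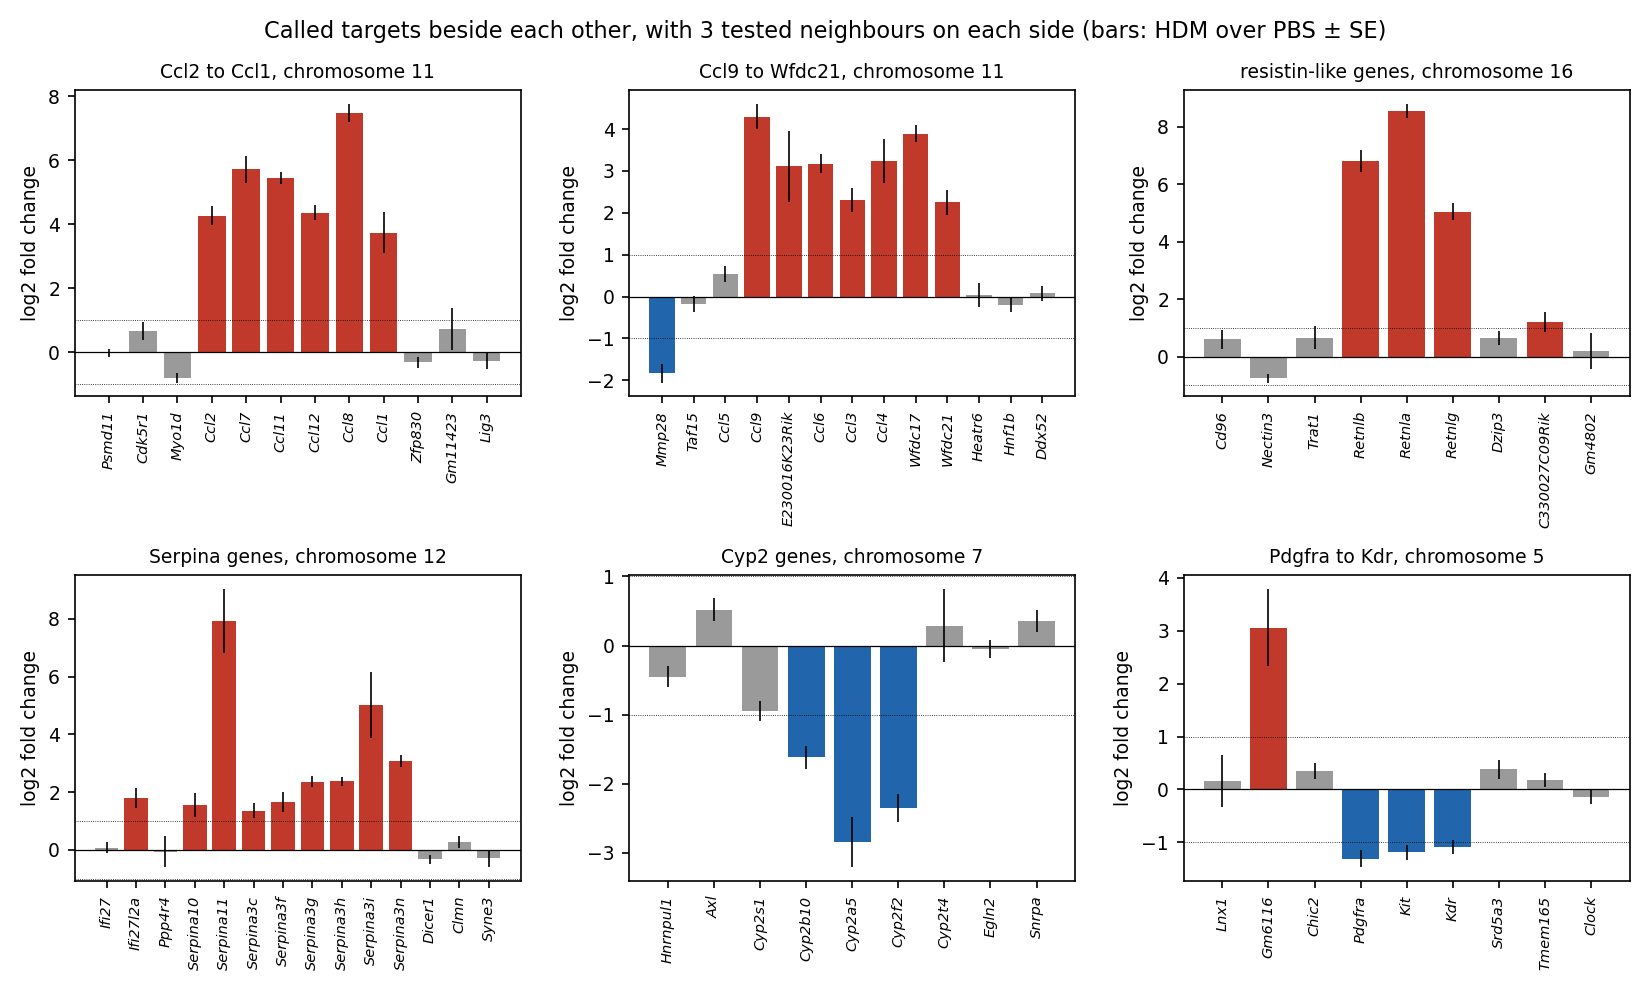
Log2 fold change (HDM over PBS, bars, with the standard error of edgeR's fit) of tested targets in their order along the chromosome, for 4 runs called higher and 2 called lower, each with 3 tested neighbours on either side. Red and blue bars are called, grey bars are not, and dotted lines mark 2-fold; the 6 targets from Ccl2 to Ccl1 stand between neighbours that were not called.

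Markers of other tissues moved with the groups in part. Of the list of liver genes 10 of 20 passed as higher (5 without HDM replicate 2) and 1 as lower, and their summed level was 740 to 906 CPM with PBS and 532 to 704 CPM with HDM, most of it Hp (haptoglobin), which the lung makes. Alb, serum albumin, had 2, 45, 152 and 57 counts in the PBS libraries and 471, 843 and 129 counts in the HDM libraries, so that HDM replicate 3 lay within the PBS range, and its adjusted p of 0.00349 (edgeR) was 0.0519 in DESeq2. Heart muscle genes of the pulmonary veins were lower in 9 of 14 cases (5 without HDM replicate 1) and higher in 1. Myh6 had 243, 223, 241 and 111 CPM in the PBS libraries and 36.2, 95.7 and 57.8 CPM in the HDM libraries. Red cell genes were lower in 3 of 4, and their sum was 194 to 497 CPM with PBS and 118 to 176 CPM with HDM. Fat genes were lower in 2 of 7 (1 without HDM replicate 1), 28.6% against 14.2% of all targets. Their sum was 207.7 CPM in PBS replicate 1, 56.6 to 72.3 CPM in the other PBS libraries and 27.1 to 59.3 CPM with HDM. Their median log2 fold change of −1.23 was −0.38 without PBS replicate 1, the library that also held nearly all counts of Glycam1. The part of these tissues in the results above was not tested.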

How the data were processed

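Lung RNA was amplified with the Ion AmpliSeq mouse transcriptome panel, and the deposited tables hold raw counts of reads per target, which the authors made with Torrent Suite 5.10.1, with mm10 named as the build in the submitters' notes. No normalised values were used. From the counts, targets with a sum of at least 30 over the 7 libraries were fitted with edgeR 4.0.16 (R 4.3.3; TMM factors on library totals, group as the only term, quasi-likelihood test, two-sided) and p-values were adjusted by Benjamini-Hochberg over 14608 targets. Spreadsheet software had altered 27 symbols, which were restored. Gene positions came from GENCODE M21 (GRCm38), by symbol for 21334 targets and by synonym for 420, and 2176 were not matched. Each library is 1 mouse, so p-values set the difference between groups against the spread between these mice, which edgeR estimates partly from all targets. That spread may include differences between experiments. The assay has no molecular identifiers, so floors (3 counts per library) cover counting error only. Alternatives were other scalings (RLE, library totals), filters (none, filterByExpr), all 3 groups in 1 fit, the replicate number as a block, thinned counts, DESeq2 1.42.0, no fold threshold and leaving out each library. Counts were also simulated for 14608 targets from the fitted means and dispersions, with 104 targets changed 3-fold and 96 changed 6-fold. Of these, 71.2% and 81.2% were called, with 4 false calls. In the data far more targets passed (29.5%), so the rates of this simulation need not hold for the comparison itself.

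The comparison, the gene lists and the rule for named genes were chosen with earlier results of these data known. Genes were eligible if the study names them, if they had the smallest p, the largest fold or the largest change in CPM, if they had 0 counts with PBS, or if they were anchors or smallest-p members of a list. Picks by smallest p or largest fold also needed no overlap between libraries and a minimum mean level in the higher group. Acvrl1, Alox12, Aqp5, Arntl, Arpc1a, Ccl2, Ccl3, Ccl4, Ccl7, Ccr2, Ccr3, Cd274, Cd74, Clock, Cyba, Fcgbp, Gp1bb, Gp9, Icam1, Id1, Id2, Igf1r, Il13ra1, Il4ra, Itga2b, Ltf, Ms4a2, Muc1, Ngp, Pdpn, Pf4, Prdm1, Ptgis, Serpina10, Smad7, Spdef, Tlr5 and Wfdc17 were named outside this rule, after their values were seen.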

Additional observations from a re-analysis of the deposited data

Results flagged for a closer look

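Among the PBS libraries, 1 library stood far from the other 3 for 11 of the 219 genes tested in this way. The limit used is set for 1 in 20 groups of continuous, normally distributed values. Whether 11 is more than chance gives cannot be read from that rate, as the genes were selected and come from the same libraries. Ccr3, Cd209e, Il5 and Pdcd1lg2 had 1 count in 1 library and 0 in the others, a pattern that always passes this limit. PBS replicate 4 had 10.31 CPM of Ccl17, against at most 3.8 in the others, 7.612 CPM of Cyp7b1, against at most 4.68, and 111.0 CPM of Myh6, against at least 223. For Ccr3 and Cd209e, PBS replicate 4 held the 1 count of the group, worth 0.1586 CPM. Likewise the 1 PBS count of Il5 was in PBS replicate 1 (0.1643 CPM) and that of Pdcd1lg2 in PBS replicate 2 (0.1462 CPM). PBS replicate 1 had 33240 CPM of Scgb1a1, the lowest, and 148.0 CPM of Glycam1, against at most 1.02. PBS replicate 2 had 6.288 CPM of C3ar1, the lowest, and 63.18 CPM of Tmem100, the highest. Glycam1 was called lower with HDM, but did not pass without HDM replicate 1, 2 or 3 (adjusted p = 0.0707, 0.0554 and 0.0541, edgeR), and no HDM library lay outside the range of the other 3 PBS libraries.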

How the results depend on the processing

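With 1063 targets called higher and 599 lower, the counts were 918 to 1114 and 576 to 765 under the other scalings, filters, fits and DESeq2. Without the fold threshold, 2242 passed as higher and 2069 as lower. Leaving out each library in turn gave 902 to 1135 higher and 516 to 688 lower, and 324 to 385 higher and 185 to 228 lower members of the gene lists. The share of higher among all calls was 64.0%, and 54.5% with library totals only. The labels do not say whether replicate numbers pair the mice. Deviations of same-numbered libraries correlated at −0.07, −0.21 and −0.31, and those of other pairs at −0.32 to 0.41. The highest was PBS replicate 2 with HDM replicate 3, which had the largest nose receptor sums of their groups (734 and 1812 CPM, without TMM scaling). A link between the 2 was not tested. With the replicate block 1057 were higher and 664 lower. Depth limits values of a few counts, such as those of Il13, Il4 and Il5.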

Other observations

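Platelet genes, most of them chosen after their values were seen, mostly fell, with exceptions. Gp9, a subunit of the von Willebrand factor receptor, had 5.42, 5.26, 5.83 and 5.55 CPM in the PBS libraries and 2.3, 0.706 and 0.526 CPM in the HDM libraries (log2 fold change −2.18, standard error 0.47, edgeR adjusted p = 0.00258). Itga2b, the platelet fibrinogen receptor chain, fell from 21.6 to 7.5 CPM (log2 fold change −1.52, standard error 0.20). Ppbp, a chemokine of platelet granules, fell from 67.7 ± 8.37 CPM (SD, n = 4) to 18.4 ± 3.77 CPM (n = 3). Tubb1, a tubulin of platelets, fell from 46.3 ± 2.51 CPM (SD, n = 4) to 13.1 ± 2.35 CPM (n = 3) (log2 fold change −1.82, standard error 0.17, edgeR adjusted p = 2.06e-06). Pf4, another granule chemokine, rose instead, with 86.8, 70.8, 87.5 and 97.5 CPM in the PBS libraries and 238, 206 and 230.2 CPM in the HDM libraries (log2 fold change 1.39, standard error 0.14). Its groups were clear of each other, and Gp1bb did not pass (adjusted p = 0.936, edgeR).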
